A study of Rattus norvegicus with 12 samples.

Results

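The tripartite motif (Trim) family of ubiquitin ligases was followed in primary rat hepatocytes exposed to interferon alpha. Members were all probe sets whose only symbol in the array's platform annotation was Trim followed by a digit, so relatives with other names, such as Pml, were not members. The rule took 47 of 31042 probe sets, which stood for 35 genes, and it used no measured value. Of these genes, 25 had 1 probe set, 8 had 2 and 2 (Trim2 and Trim47) had 3.

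Hepatocytes were freed from the liver of Wistar rats with collagenase, purified on Percoll and cultured overnight. They were then kept with or without 250 U/ml rat interferon alpha, and RNA was taken after 3 h or 6 h. The 4 groups were untreated cells at 3 h, treated cells at 3 h, untreated cells at 6 h and treated cells at 6 h, each with 3 samples labelled biological replicates. All groups shared the strain, the isolation, the overnight culture and the array type, and by their labels differed in interferon and time only. The labels do not say whether the replicates were separate rats or cell preparations, so p-values measure the spread between these samples. The number of arrays limits the precision.

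The 12 arrays had medians between 5.16 and 5.21 on the log2 scale of the deposited values, and the correlation of any 2 arrays over all probe sets lay between 0.979 and 0.997. All 13 hepatocyte markers measured (Alb, Ttr, Cps1 and others) were above the upper quartile of the probe sets. Markers of other liver cells were measured as well: 2 of 11 Kupffer cell markers, 1 of 8 endothelial, 1 of 5 cholangiocyte, and 0 of 10 stellate cell, 0 of 13 lymphocyte and 0 of 4 neutrophil markers were above that quartile. The summed level of the Kupffer cell markers, taken as log2, ranged from 12.16 to 12.82 in untreated and from 12.08 to 12.81 in treated cells at 3 h, and from 12.31 to 12.94 and from 12.34 to 12.92 at 6 h. No marker of any of these lists passed the test with interferon, with or without the replicate block described below. In such bulk cultures, fewer cells of a type and less RNA per cell cannot be told apart. Of 15 well-known interferon-induced genes measured, such as Mx1, Ifit3 and Isg15, 14 rose at 6 h, against 0.563% of all genes. Without the treated replicate 2 array of 6 h, 9 of the 15 rose, and the share over all genes in that fit is not given here.

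Trim proteins usually carry a RING finger, which recruits a ubiquitin-charged conjugating enzyme, then B-box and coiled-coil regions through which the proteins assemble, and a C-terminal region that binds the target. In most members that region is a PRY-SPRY domain, and others have NHL repeats, a PHD finger with a bromodomain, or a COS box that binds microtubules. Type I interferons act on many genes through interferon-stimulated response elements in their promoters, and several Trim genes are known targets of this pathway. Among the best known, Trim25 activates the RNA sensor RIG-I by ubiquitination and Trim5 restricts retroviral capsids.

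Treated and untreated samples were compared with limma over all 31042 probe sets, with Benjamini-Hochberg adjustment, and a change was called at an adjusted p under 0.05. Same-numbered replicates deviated together, so each comparison was also fitted with the replicate number as a block, and those values are given where they change a call. After 6 h, 4 Trim probe sets of 3 genes rose and none fell: Trim5, Trim34 and both probe sets of Trim26, by 2.02 to 2.67 times. The shares over the whole array in that fit were 0.387% risen and 0% fallen. With the replicate block, 8 Trim probe sets of 6 genes rose, the additional ones being Trim25, Trim30d and both probe sets of Trim14, and none fell, where 1.06% of the array rose and 0.0354% fell. The mean of both times, which uses all 12 arrays, gave 5 probe sets of 4 genes without the block (Trim5, Trim25, Trim34 and Trim26; 0.432% of all probe sets) and the same 8 with it (1.02%). None fell over both times, where 0.00322% of the array fell without the block and 0.0773% with it. The other 29 genes, with 39 probe sets, passed the test with interferon in neither fit at either time.

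The regions around the transcription starts are shown for Trim34 and Trim26, which rose and hold a match to the core of the interferon-stimulated response element, and for Trim5, which rose and holds none. Each runs 5′ to 3′ on the gene's strand from 250 bases before to 50 bases after the start (RefSeq, build GRCr8). The stretch covered by 2 overlapping matches is in capitals. They lie at chr1:168118793-168119092 (plus strand), chr20:1736262-1736561 (minus strand) and chr1:168149214-168149513 (minus strand).
Trim34: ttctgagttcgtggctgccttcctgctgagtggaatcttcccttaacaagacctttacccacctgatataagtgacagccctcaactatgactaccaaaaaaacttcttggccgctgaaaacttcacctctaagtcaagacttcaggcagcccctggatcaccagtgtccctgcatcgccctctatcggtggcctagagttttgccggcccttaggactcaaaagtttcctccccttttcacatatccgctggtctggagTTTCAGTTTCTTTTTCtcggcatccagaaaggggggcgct
Trim26: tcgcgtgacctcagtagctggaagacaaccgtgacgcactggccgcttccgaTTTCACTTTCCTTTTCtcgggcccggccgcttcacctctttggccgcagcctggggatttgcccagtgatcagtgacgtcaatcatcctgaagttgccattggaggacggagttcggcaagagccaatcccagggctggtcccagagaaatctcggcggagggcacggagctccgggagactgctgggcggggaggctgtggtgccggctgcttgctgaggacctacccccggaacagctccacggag
Trim5: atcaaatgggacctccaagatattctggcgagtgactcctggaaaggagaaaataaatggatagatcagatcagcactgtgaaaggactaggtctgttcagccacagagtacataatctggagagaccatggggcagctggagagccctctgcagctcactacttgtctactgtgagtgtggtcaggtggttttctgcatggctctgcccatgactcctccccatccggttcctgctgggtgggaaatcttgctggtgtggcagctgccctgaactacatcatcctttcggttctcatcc
The search on both strands was for GAAA, any 2 bases and GAAA again. In Trim34 the matches began 10 and 16 bases after the first transcribed base. In Trim26 they reached from 198 to 189 and from 192 to 183 bases before it, and all were on the strand opposite to the gene. RefSeq promoters were matched for 29 of the 35 Trim genes. The motif was present in 2 of these, both among the 5 risers with an entry and in none of the other 24, against 3.92% of 33469 promoters. A match describes letters in a window and is not evidence of binding. In the RefSeq order of rat chromosome 1, Trim6, Trim34, Trim5, Trim30c and Trim30d follow one another with only pseudogenes between some of them, whereas Trim26 lies on chromosome 20 near Trim15 and Trim10. Of that chromosome 1 row, Trim34, Trim5 and Trim30d rose and the neighbour Trim6 was not called.

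Trim5, the retroviral restriction factor (probe set 1372112_at), read 8.74, 8.61 and 9.15 (log2, replicates 1 to 3) in untreated cells at 3 h and 8.83, 9.38 and 9.56 in treated cells. At 6 h it read 8.59, 8.65 and 8.89 untreated and 9.67, 10.44 and 10.27 treated. The groups overlapped at 3 h and were apart at 6 h, where the lowest treated sample stood above every untreated one. The 6 h difference was 1.42 ± 0.23 (SE, n = 3 per group; 2.67-fold; limma adjusted p = 0.0277, and 0.000508 with the block). At 3 h it was 0.43 ± 0.23 and was not called (adjusted p = 1.00, and 0.631 with the block).

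Trim34, the neighbour of Trim5 with a PRY-SPRY domain (1385252_at), read 7.64, 7.23 and 7.79 untreated and 7.57, 8.35 and 8.28 treated at 3 h. Its values at 6 h were 7.28, 7.31 and 7.40 untreated and 8.52, 8.76 and 8.78 treated. Replicate 1 was no higher with interferon at 3 h, and at 6 h all treated samples were above all untreated ones. The 6 h difference was 1.36 ± 0.20 (SE, n = 3 per group; 2.56-fold; limma adjusted p = 0.0129, and 0.00137 with the block), and that at 3 h was 0.51 ± 0.20 (adjusted p = 1.00).

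Trim30d, from the rodent Trim30 branch next to Trim5 (1390909_at), had a large 6 h difference and a wide spread. Its values at 3 h were 6.43, 7.45 and 5.56 untreated and 6.84, 8.96 and 6.20 treated. At 6 h they were 6.00, 7.07 and 5.67 untreated and 7.73, 9.61 and 6.97 treated. Replicate 2 was the highest and replicate 3 the lowest in all 4 groups, so the groups overlapped at both times, while each treated sample was above the untreated sample of its own number. The 6 h difference of 1.86 (3.62-fold, n = 3 per group) had an SE of 0.81 without the block and 0.23 with it, with limma adjusted p = 1.00 and 0.00129. Without the block it was 1.10 when treated 6 h replicate 2 was left out and 2.42 when treated 6 h replicate 3 was. Those fits kept the untreated sample of the same number, so these values also carry the spread between replicates. Within replicates 1 to 3 the 6 h difference was 1.73, 2.54 and 1.29, so its size varied between them. Trim5, Trim34 and Trim30d are related genes, and whether their probe sets also take up transcripts of one another was not tested.

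Trim26, a PRY-SPRY ligase of the major histocompatibility region, was measured by a pair of probe sets. Probe set 1378293_at read 7.55, 7.35 and 7.24 untreated and 7.67, 8.38 and 8.36 treated at 3 h, and 7.72, 7.67 and 7.39 untreated and 8.70, 8.68 and 8.46 treated at 6 h. Probe set 1383369_at read 7.87, 7.72 and 7.99 untreated and 8.12, 8.74 and 8.79 treated at 3 h, and 8.46, 8.13 and 8.14 untreated and 9.32, 9.53 and 9.09 treated at 6 h. All treated samples were above all untreated ones at both times in both probe sets. The 6 h differences were 1.01 ± 0.18 and 1.07 ± 0.18 (SE, n = 3 per group; limma adjusted p = 0.0464 and 0.0350, and 0.0133 and 0.0119 with the block). Those at 3 h were 0.75 ± 0.18 and 0.69 ± 0.18 and were not called (adjusted p = 0.874 and 1.00); without the treated replicate 1 array of 3 h, the first was called (adjusted p = 0.0413).

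Trim25, the RIG-I-activating ligase (1377726_at), read 9.34, 9.21 and 8.65 untreated and 9.78, 9.97 and 9.80 treated at 3 h. At 6 h it read 9.08, 8.90 and 8.46 untreated and 9.94, 9.68 and 10.02 treated. The groups were apart at both times, and the treated means were near each other at 9.85 and 9.88. The difference was 0.78 ± 0.19 at 3 h (limma adjusted p = 0.938, and 0.187 with the block) and 1.07 ± 0.19 at 6 h (n = 3 per group; adjusted p = 0.0505, and 0.00580 with the block). Over both times it was 0.92 ± 0.14 and was called (adjusted p = 0.0119). Without the untreated replicate 3 array of 3 h, the 6 h difference was called too.

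Trim14, which has a B-box and a SPRY domain but no RING and is known as a mitochondrial adaptor of RNA sensing, rose only in the fit with the block. Probe set 1381858_at read 9.19, 9.17 and 8.48 untreated and 9.16, 9.46 and 8.81 treated at 3 h, and 8.45, 8.84 and 8.01 untreated and 8.97, 9.59 and 9.11 treated at 6 h. Probe set 1386754_at read 8.31, 8.31 and 7.74 untreated and 8.27, 8.75 and 8.01 treated at 3 h, and 7.79, 8.22 and 7.67 untreated and 8.37, 9.13 and 8.50 treated at 6 h. The groups overlapped at 3 h and were apart at 6 h in both. The 6 h differences of 0.79 and 0.78 (n = 3 per group) gave limma adjusted p = 0.851 and 0.796 without the block and 0.0113 and 0.00868 with it. The 3 h differences were 0.20 and 0.22.

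**Figure D1:**
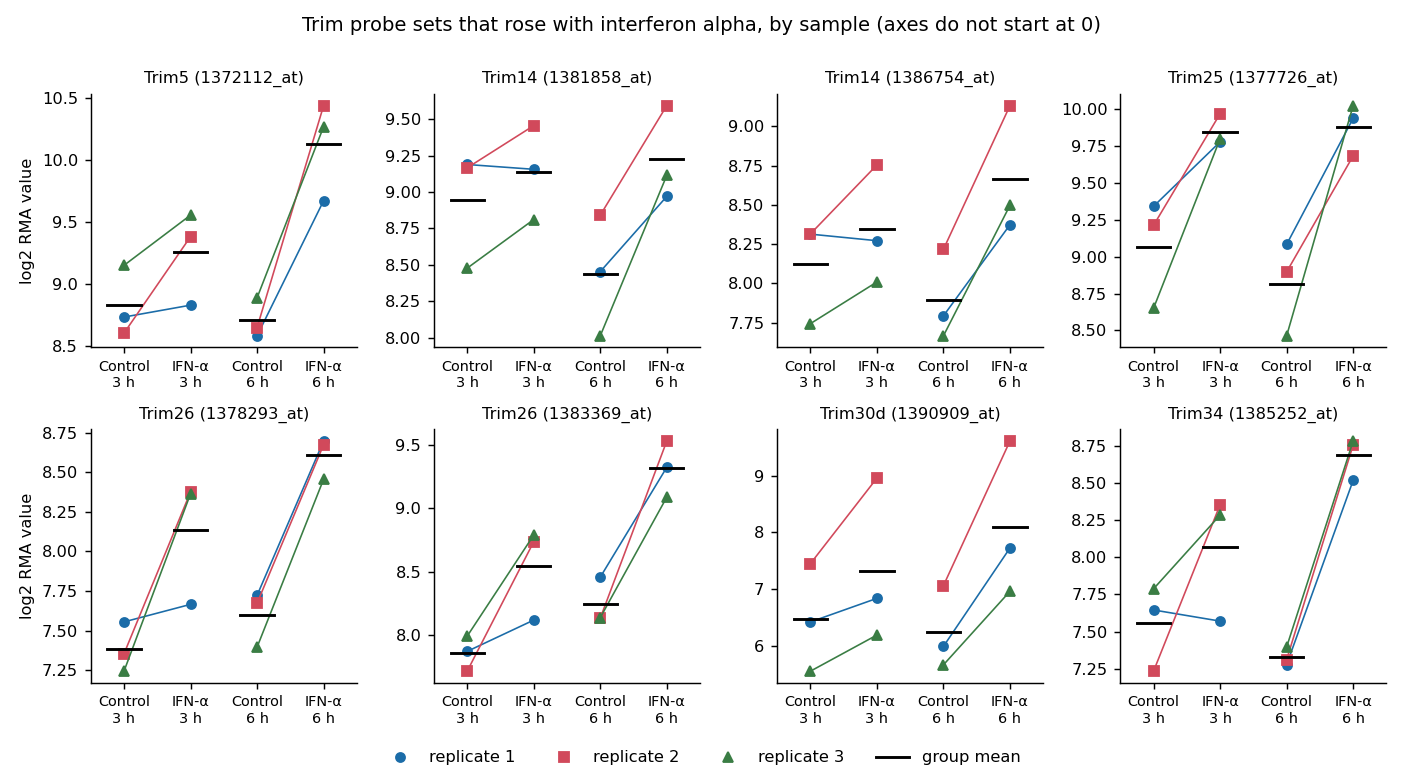
Log2 RMA value (y axis, not starting at 0) of each of the 8 Trim probe sets that rose in either fit, in the 4 groups (x axis); points are samples, lines join the untreated and treated sample of the same replicate number, and bars are group means. At 6 h the treated samples lie above all untreated ones in each panel but Trim30d, whose replicates keep their order instead, from 5.67 to 9.61.

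Calls at 6 h without the block were often lost when 1 array was left out, and in the full fit 0.387% of all probe sets rose. Shares over all probe sets in the fits with arrays left out are not given here. The counts below therefore do not show whether Trim members lost more calls than other probe sets. Leaving out 1 array at a time gave 0 to 4 called Trim probe sets: 0 without untreated 6 h replicate 1, 2 or 3 or treated 6 h replicate 2, 1 without untreated 3 h replicate 1 or treated 6 h replicate 3, and 2 without untreated 3 h replicate 2 or treated 6 h replicate 1. Among these 12 fits Trim34 was called in 7, Trim5 in 6, and Trim26 in 4 (1383369_at) and 2 (1378293_at), with adjusted p up to 0.234. Some calls were lost without a 3 h array, which does not enter the 6 h difference. The 6 h differences in the 12 fits were 1.31 to 1.44 for Trim34 and 1.26 to 1.65 for Trim5. For Trim26 they were 0.96 to 1.18 (1383369_at) and 0.91 to 1.09 (1378293_at). Over both times, Trim25, Trim34 and both Trim26 probe sets were called in all 12 such fits, with differences between 0.82 and 1.06, whereas Trim5 was called in 3 of 12. Trim5 was lost without each array other than treated 3 h replicate 1, untreated 3 h replicate 3 and treated 6 h replicate 1, at adjusted p up to 0.142. With the block and all arrays of 1 replicate number left out, 8, 3 and 2 Trim probe sets rose at 6 h without numbers 1, 2 and 3, and Trim5 and Trim30d were called in all 3 of these fits. Trim34 was called without number 1 or 2, and Trim14, Trim25 and Trim26 without number 1 alone.

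At 3 h no Trim probe set was called, with or without the block, by limma, where 0.00644% and 0.0934% of all probe sets rose, or by its variant with an intensity trend. At an unadjusted p under 0.05, 5 Trim probe sets of 4 genes were higher (2.08% of the array) and 0 lower (0.867%). The 8 probe sets named above had 3 h differences from 0.20 (Trim14) to 0.85 (Trim30d), with a median of 0.60 against -0.01 over all probe sets. Replicate 1 had the smallest 3 h response: the median of these 8 was 0.10 in replicate 1, 0.90 in replicate 2 and 0.57 in replicate 3, with 5, 8 and 8 of 8 higher. Over all 31042 probe sets, 14722, 14219 and 14362 were higher in replicates 1, 2 and 3. The 15 interferon-induced genes had medians of 0.58, 2.27 and 1.92 in the same replicates. Without the treated replicate 1 array of 3 h, 1 Trim probe set (Trim26 1378293_at) was called at 3 h.

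At 6 h the medians of the 8 were 0.92, 1.20 and 1.20 in the 3 replicates, and each of the 8 was higher in each replicate. Over all 31042 probe sets, 14404, 14176 and 14425 were higher in replicates 1, 2 and 3. All 8 had a larger difference at 6 h than at 3 h, by 0.26 (Trim26 1378293_at) to 1.00 (Trim30d). Since all 8 passed the test at 6 h in the fit with the block and none at 3 h, their choice favours that direction. It also favours differences at 6 h that are large and alike in the 3 replicates. The test of that change itself called none of the 47 with or without the block, nor any of all 31042 probe sets (0%). At an unadjusted p under 0.05 in limma, 2 Trim probe sets had a larger response at 6 h (1.17% of the array) and 2 a smaller one (0.995%). Trim5 had a gain of 0.99 ± 0.33 (limma adjusted p = 1.00, and 0.538 with the block) and Trim34 one of 0.84 ± 0.28 (1.00 and 0.713). Trim25 gained 0.29 ± 0.27, with a 95% interval from -0.32 to 0.89. A later or larger response in Trim5 and Trim34 than in Trim25 was therefore not established at this number of arrays.

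**Figure D2:**
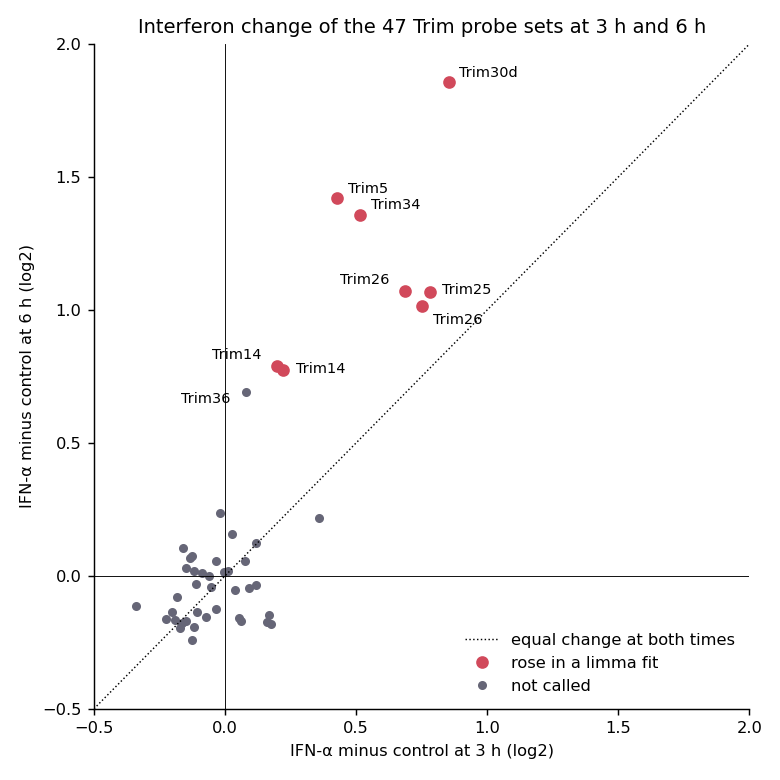
Interferon difference (treated minus untreated group mean, log2) at 3 h (x axis) and 6 h (y axis) for the 47 Trim probe sets; red points rose in either limma fit and the dotted line marks equal differences. The 8 red points lie above the line, between 0.78 and 1.86 at 6 h, and the other points lie between -0.34 and 0.36 at 3 h.

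Complete separation of the samples was counted as a description. All 3 treated samples were above all 3 untreated ones in 8 Trim probe sets at 6 h, where 4.29% of all probe sets were, and in 4 at 3 h (Trim17, Trim25 and both of Trim26; 4.53%). The 8 at 6 h were the risers without Trim30d and with Trim72. At both times 3 probe sets were so separated (Trim25 and both of Trim26; 0.702%). Pairing by replicate number, 6 probe sets were higher with interferon in all 6 pairs (Trim5, Trim17, Trim25, both of Trim26 and Trim30d; 3.32%). A further 6 were lower in all 6 pairs (Trim11 1373550_at, Trim24, Trim27, Trim28, Trim33 and Trim41 1375769_at; 6.23%), with differences over both times between -0.19 and -0.11, and none of these was called.

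The members that rose all belonged to classes with a SPRY domain, as assigned from general knowledge of the family and not from rat protein sequences. In those classes 8 of 30 probe sets (6 of 21 genes) rose in either fit, and in the other classes 0 of 17 probe sets (14 genes) did. With the block, 1.06% of all probe sets rose at 6 h and 1.02% over both times; a difference between the classes was not tested. The class with PRY-SPRY after the RING, B-box and coiled coil held 22 probe sets of 16 genes, of which 6 probe sets of 5 genes rose with the block at 6 h. A list of Trim genes linked to interferon in earlier literature had 8 measured genes. Of these, 3 rose at 6 h, 4 over both times and 6 with the block, against 0.563%, 0.584% and 1.45% of all genes, each by its brightest probe set. The list was drawn up with results of these data known and is not independent evidence. Its 2 members that were not called were Trim35, at -0.16 over both times (95% interval -0.86 to 0.55), and Trim6.

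The 39 probe sets that were not called differed with interferon by -0.23 (Trim32) to 0.38 (Trim36) over both times, with a median of -0.04 against -0.01 over all probe sets, 12 above 0 and 27 below. A missed threshold does not show that a gene did not respond, so their 95% intervals were set against a 1.5-fold change either way. Over both times the whole interval lay within that bound for 35 of the 39, as for 92.6% of all probe sets. The other 4 were Trim27 (-0.69 to 0.33), Trim35, Trim36 (-0.22 to 0.99) and Trim47 1374228_at (-0.67 to 0.33). With the block 38 of 39 lay within it (98.5% of all probe sets), Trim36 being the exception at 0.05 to 0.72. The mean of both times dilutes a response present at 1 time alone. At 6 h alone 31 of the 39 lay within the bound without the block, and at 3 h alone 30 did. The shares of all probe sets were 83.6% and 84.6%. With the block 35 did at each time (95.9% of all probe sets at 6 h and 97.2% at 3 h). Of the 39, 8 probe sets had means below the lower quartile of the array (Trim6, Trim54, Trim59, Trim63, Trim72 and 1 each of Trim9, Trim16 and Trim62) and 17 below its median, where a change is harder to see; the 8 risers were all above the median.

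**Figure D3:**
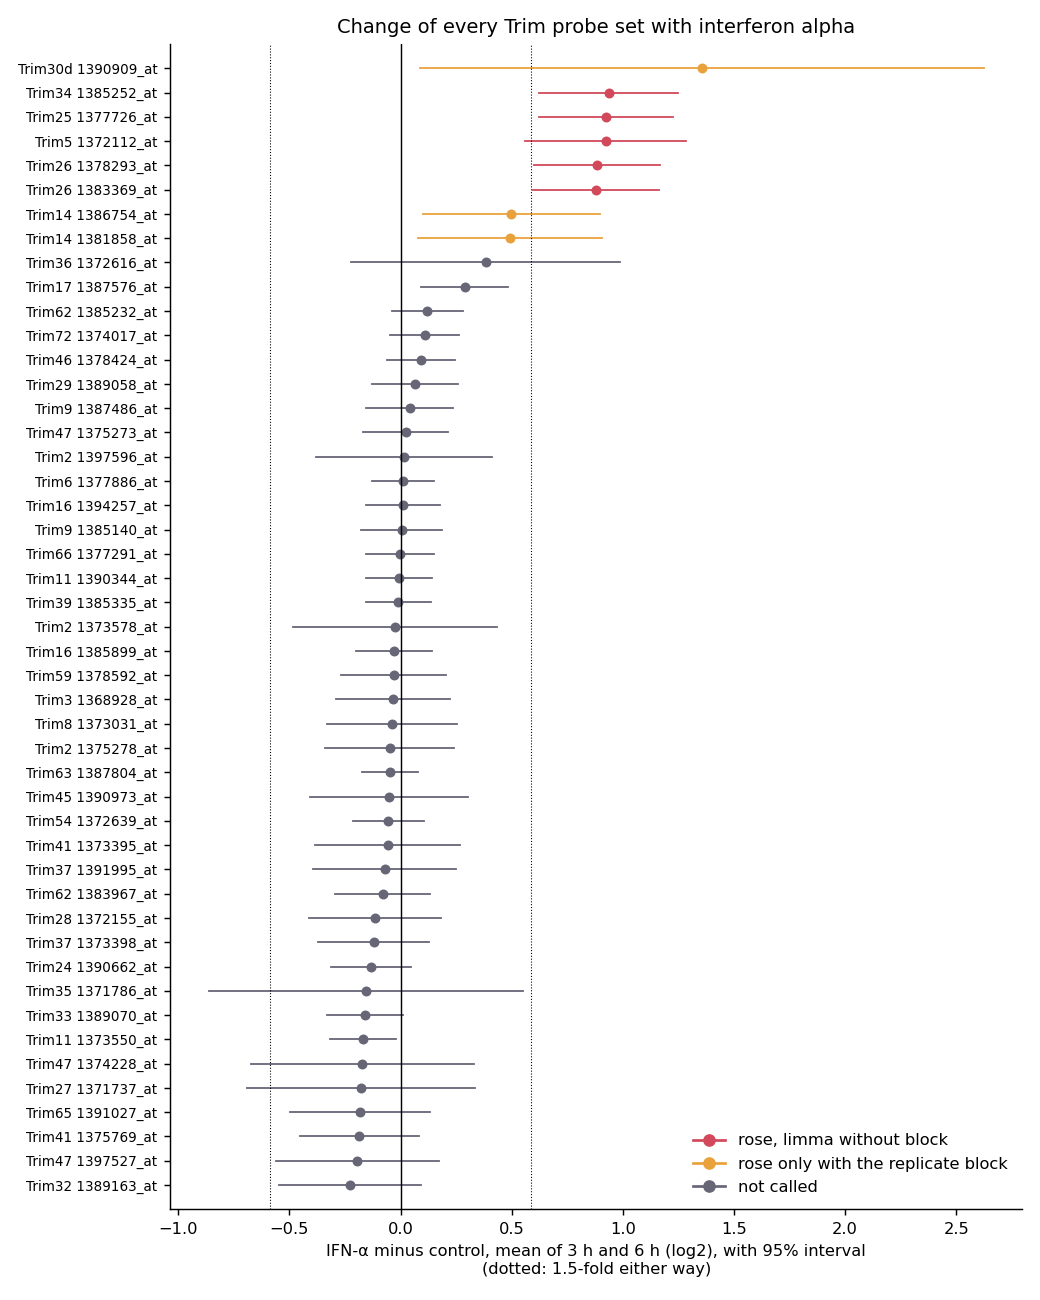
Interferon difference averaged over 3 h and 6 h (x axis, log2; points) with its 95% limma interval without the block (bars) for each of the 47 Trim probe sets (y axis), with dotted lines at 1.5-fold either way. The red points (5) and orange points (3) are the probe sets that rose without and only with the replicate block; 35 of the 39 grey intervals lie between the dotted lines.

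Among PRY-SPRY members that were not called, Trim17, a ligase best known from neurons and testis, had the largest difference over both times (0.29 ± 0.09; limma adjusted p = 0.638, and 0.168 with the block). It read 4.28, 4.16 and 4.29 untreated and 4.43, 4.80 and 4.57 treated at 3 h, and 4.26, 4.37 and 4.28 untreated and 4.28, 4.53 and 4.75 treated at 6 h. The treated samples were above the untreated ones at 3 h and overlapped them at 6 h. Trim6, which makes unanchored ubiquitin chains in interferon signalling, stayed between 3.01 and 3.32 in all 12 samples and had the narrowest interval of this class (0.01, from -0.13 to 0.15).

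Trim36, a microtubule-binding ligase with a COS box, fibronectin and SPRY domains, differed between replicates. It read 7.54, 7.45 and 7.03 untreated and 7.46, 7.91 and 6.88 treated at 3 h, and 7.34, 7.17 and 6.87 untreated and 7.95, 8.64 and 6.86 treated at 6 h. Replicates 1 and 2 were higher with interferon at 6 h and replicate 3 was not. The 6 h difference was 0.69 ± 0.39 (limma adjusted p = 1.00, and 0.315 with the block). Trim46, of the same class and known from the axon's initial segment, ranged from 5.87 to 6.35 with a difference of 0.09 over both times (-0.06 to 0.24).

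The chromatin regulators with a PHD finger and bromodomain lay close to 0. Trim24, a nuclear receptor co-regulator, differed by -0.13 over both times (-0.31 to 0.05) within a range of 7.77 to 8.32, and Trim66 by -0.00 (-0.15 to 0.15). Trim28, the KAP1 co-repressor of retroelements, had -0.11 (-0.41 to 0.18) and Trim33, a SMAD4 regulator, -0.16 (-0.33 to 0.01). With the block the intervals of Trim24 (-0.26 to -0.01) and Trim33 (-0.28 to -0.04) were below 0. Those of Trim28 (-0.25 to 0.02) and Trim66 (-0.13 to 0.12) included it. Trim24, Trim28 and Trim33 were lower in all 6 replicate pairs, as were 6.23% of all probe sets. None of these 4 was called with interferon in either fit.

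Of the NHL class, Trim32, which is mutated in a limb-girdle muscular dystrophy, read 7.40, 8.13 and 7.80 untreated and 7.27, 7.75 and 7.29 treated at 3 h, and 7.54, 8.17 and 7.77 untreated and 7.66, 7.75 and 7.72 treated at 6 h. The groups overlapped at both times, and the difference over both was -0.23 (-0.55 to 0.09; limma adjusted p = 1.00, and 0.339 with the block). Trim3, a brain-enriched NHL member, had -0.03 (-0.29 to 0.22) within a range of 6.27 to 7.08.

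The remaining classes were small. Trim54, Trim59, Trim63 and Trim16 1385899_at had means below the lower quartile of the array, where a change is harder to see and a narrow interval says less. The muscle ligases of the COS box class, Trim63 (MuRF1) and Trim54 (MuRF3), both differed by -0.05 over both times, with intervals of -0.17 to 0.08 and -0.22 to 0.11. Trim37, the MATH-domain ligase, had -0.12 (1373398_at; -0.37 to 0.13), Trim45, with a filamin repeat, -0.05 (-0.41 to 0.30), and Trim8, a regulator of cytokine signalling, -0.04 (-0.33 to 0.26). The transmembrane member Trim59 had -0.03 (-0.27 to 0.21) and Trim29, which lacks a RING, 0.07 (-0.13 to 0.26). Trim16, like Trim14 a B-box and SPRY protein without a RING, had 0.01 (1394257_at; -0.16 to 0.18) and -0.03 (1385899_at; -0.20 to 0.14).

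Time in culture without interferon was compared to see which members moved on their own. Between 3 h and 6 h no Trim probe set was called without the block, where 0.0902% of all probe sets rose and 0.0999% fell. At an unadjusted p under 0.05 in limma, 6 Trim probe sets stood higher at 6 h (5.34% of the array) and 2 stood lower (4.80%). With the block 2 rose and 2 fell, against 3.33% and 4.82% of all probe sets, shares near those of the family (4.26% each). Trim33 (1389070_at) rose from 7.74, 7.61 and 7.92 to 8.12, 8.16 and 8.41, a change of 0.47 (adjusted p = 0.136, and 0.00485 with the block). Its treated samples read 7.62, 7.57 and 7.63 at 3 h and 8.03, 7.93 and 8.22 at 6 h. Trim41, a PRY-SPRY ligase (1375769_at), rose from 6.51, 6.45 and 6.76 to 6.74, 6.94 and 7.32, a change of 0.43 (0.426 and 0.0180), and its treated samples read 6.42, 6.25 and 6.54 at 3 h and 6.62, 6.68 and 7.11 at 6 h. The untreated groups were apart for Trim33 and overlapped for Trim41, where the lowest 6 h sample was under the highest 3 h sample. Its other probe set (1373395_at) changed by 0.22 and was not called with the block (0.158).

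Trim2, a neuronal NHL ligase, fell by 0.95 on the log2 scale in probe set 1373578_at (limma adjusted p = 0.272, and 0.0185 with the block). It read 6.48, 7.22 and 7.01 at 3 h and 5.97, 6.42 and 5.46 at 6 h, and the groups did not overlap. Its other probe sets changed by -0.32 (1375278_at) and -0.45 (1397596_at) and were not called with the block (0.0973 and 0.165). Treated cells read 6.34, 6.99 and 7.00 at 3 h and 6.07, 6.40 and 5.60 at 6 h, and the interferon differences of this probe set were -0.13 and 0.07. Trim14 1381858_at fell by 0.51 without interferon (0.582, and 0.0372 with the block), with overlapping groups, and its other probe set by 0.23 (0.847 and 0.315). Untreated cells at 6 h are the control of the 6 h comparison, so the fall of Trim14 without interferon and its rise with interferon at 6 h share those 3 samples; the treated means were 9.14 at 3 h and 9.23 at 6 h. In 9 Trim probe sets all untreated 6 h samples were above all untreated 3 h samples (7.82% of the array). Among them were all 3 probe sets of Trim47, a PRY-SPRY ligase, with changes of 0.36 to 0.48, and none of these 3 was called. Leaving out number 1, 2 or 3 with the block gave 3, 0 and 1 called Trim probe sets, and the shares over all probe sets in those fits are not given here.

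**Figure D4:**
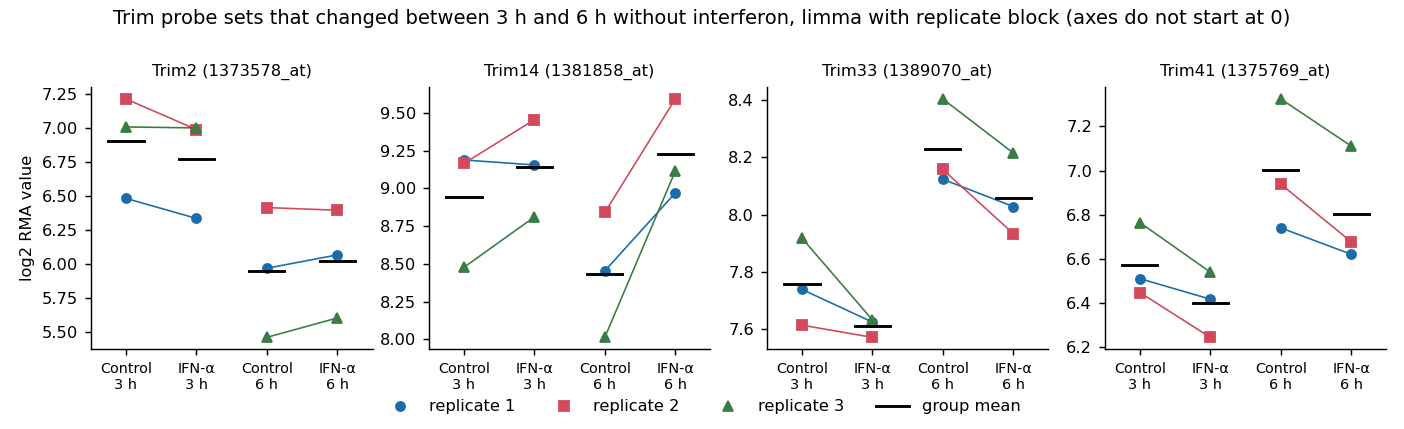
Log2 RMA value (y axis, not starting at 0) in the 4 groups (x axis) of the 4 Trim probe sets that changed between 3 h and 6 h without interferon in the fit with the replicate block; points are samples, lines join the same replicate number and bars are group means. The group means of Trim2 are lower and those of Trim33 and Trim41 higher at 6 h in treated as in untreated cells, whereas Trim14 falls only in the untreated means (8.94 to 8.44).

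Other genes of the pathway were taken from lists, each gene by its brightest probe set. Of 4 tripartite motif proteins under other symbols, 1 rose: Pml, the organiser of nuclear bodies, by 2.18 ± 0.25 at 6 h (limma adjusted p = 0.00325). The other 3, Mid1, Mid2 and Mefv, differed by -0.05 to 0.10. Of 15 genes through which Trim ligases act on RNA sensing, 4 rose at 6 h and 0 fell: the interferon regulatory factor Irf7 by 3.11, and the RNA sensors Ifih1 (MDA5), Rig1 (RIG-I, the partner of Trim25) and Dhx58 (LGP2) by 2.14, 1.77 and 1.47. The list's median was 0.05 against -0.02 over all genes, of which 0.563% rose.

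Of 20 ubiquitin-activating and conjugating enzymes, 1 rose at 6 h: Uba7, which activates the ubiquitin-like protein Isg15, by 1.66 ± 0.23 (limma adjusted p = 0.00756; without treated 6 h replicate 2, 0 were called). Ube2l6, the conjugating enzyme for Isg15, had 0.77 ± 0.20 and rose only with the block (0.327 and 0.0104). The list's median was -0.05. Of all genes, 0.563% rose at 6 h without the block and 1.45% with it, which holds for each list here. Of 19 deubiquitinases 1 rose, Usp18, which removes Isg15, by 2.21 ± 0.35 (0.0199), and with the block Usp25 as well (0.74; 0.306 and 0.00789); the list's median was 0.00. Usp18 was not called without replicate 2 or 3 of either 6 h group. Of 32 other RING and HECT ligases 5 rose and 0 fell at 6 h: Rnf213 by 2.95, Dtx3l by 2.26, Herc6, the rodent Isg15 ligase, by 2.05, Herc3 by 1.77 and Rnf114 by 1.04. Their list's median was 0.06, and 3 were called without treated 6 h replicate 1 or 2 or untreated 6 h replicate 3. In each of these lists most members were not called, as in the Trim family and over all genes.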

How the data were processed

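RNA of 12 cultures was labelled and hybridised to 1-colour Affymetrix rat arrays. Per the submitters' processing notes, the deposited values were made by the authors with RMA in affy under R 2.10.0. RMA subtracts background, makes the arrays' distributions equal and summarises the probes of a set on the log2 scale, so a shift shared by all genes cannot be seen. Which probe definition file was used was not given in the sources used here. The deposited log2 values were used as they stand, without the array's control probe sets. Symbols came from the platform annotation, where all 35 Trim genes matched RefSeq by Entrez identifier.

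All 4 groups entered 1 limma fit (limma 3.58.1, R 4.3.3; lmFit and eBayes, 8 residual degrees of freedom, 6 with the replicate block). The fit was tested on simulated data with known changes. The labels number the replicates and do not say what a number marks. Over all probe sets, deviations from the group means correlated between 0.479 and 0.829 for all 18 pairs of same-numbered samples. For differently numbered ones this was between -0.562 and -0.0747, so the numbers were taken to pair the samples. Deviations sum to 0 in each group, so positive values for same numbers favour negative ones for different numbers. Over the Trim probe sets alone the ranges overlapped, at 0.0315 to 0.858 for same and -0.777 to 0.212 for different numbers. No array pair was identical.

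Every Trim probe set was counted. Each sample's value is given for those called in any comparison in either fit. Of the others, the probe sets with the narrowest interval and the largest difference of each C-terminal class are named; Trim9, Trim11, Trim27, Trim28, Trim35, Trim47, Trim62 and Trim72 were named in addition after their values were seen. Of the other lists, up to 4 called genes are named, and Rnf114, Ube2l6 and Usp25 were added after their values were seen. C-terminal classes were assigned from general knowledge of the family. A second promoter motif was searched and is not reported here. The members and lists were chosen with earlier results of these data known. Alternatives were the block, an intensity trend, a filter on dim probe sets, 1 probe set per gene, the comparison's own samples, median centring and leaving out arrays.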

Additional observations from a re-analysis of the deposited data

How the results depend on the processing

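No difference called in the main limma fit changed sign under the 23 other settings. At 6 h the main count of 4 called Trim probe sets was 8 with the replicate block, 8 with the block within each time and 8 with the block and probe sets above the median alone, 2 with the comparison's own samples and 0 to 4 with 1 array left out. With the block and replicate number 1, 2 or 3 left out it was 8, 3 and 2. For fits with arrays left out, the shares over all probe sets are not given here. Over both times the count of 5 was 8 in each of the same 3 blocked fits, 4 to 5 with 1 array left out, and 8, 4 and 2 with a number left out. At 3 h the count of 0 ranged from 0 to 1 with 1 array or number left out. Between untreated times the count of 0 was 4 with the block, 6 with the block and probe sets above the median, and 3, 0 and 1 with a number left out. Over both times, 35 of the 39 uncalled probe sets had intervals within 1.5-fold. That count was 18 of 22 when the dimmer ones were dropped, and 21 of 22 with the block as well, since fewer were tested. An intensity trend, median centring and 1 probe set per gene kept the counts within 1.5 times. The block changed no Trim call at 3 h or in the difference between the times' responses. Across named Trim members, 2902 values kept their side of the threshold, 51 passed it and 53 lost it. Only a call could be lost, and the main fit held the 4 at 6 h and the 5 over both times. Most of the 2902 were therefore values not called in the main fit, and they say little about how stable the calls were. Of the counts for the other lists, 546 stayed within 1.5 times and 39 did not. Low signal limits the 17 probe sets below the median, and 3 arrays per group limit all.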
